A study of Mus musculus with 8 samples.

Results

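The subunits of the oxidative phosphorylation system are described here in tumor-associated microglia and macrophages (TAMs) of mouse medulloblastoma, a tumor of the cerebellum, against microglia of normal cerebral cortex. The members were the protein-coding genes of the deposited table whose symbols follow the naming of the respiratory complexes and of ATP synthase (Nduf, Sdh, Uqcr, Cox4 to Cox8 and Atp5 in the nucleus; mt-Nd, mt-Cytb, mt-Co and mt-Atp in mitochondrial DNA). This rule used names and no measured values, and it gave 97 of 38026 genes, 84 nuclear and 13 mitochondrial. The 5 TAM libraries came from tumors of C57BL/6 mice aged 68, 90, 61, 66 and 62 days (replicates 1 to 5), and the 3 Microglia libraries came from cortex of C57BL/6 mice aged 60 days. All 8 were bulk RNA-seq libraries of cells freed with papain, cleared of myelin and held on magnetic beads against CD11b, an integrin subunit of microglia, macrophages, monocytes and granulocytes. The labels give neither the genotype that produced the tumors nor whether libraries of a group came from separate mice, so p-values measure the spread between these libraries. Tumor, brain region and age differ together between the groups and cannot be told apart.

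Oxidative phosphorylation is the last stage of respiration in mitochondria. Complex I (NADH dehydrogenase) and complex II (succinate dehydrogenase) pass electrons through ubiquinone to complex III, cytochrome c and complex IV (cytochrome c oxidase), and complex V (ATP synthase) uses the resulting proton gradient to make ATP. Most subunits are encoded in the nucleus and imported, while a small core of complexes I, III, IV and V is encoded in mitochondrial DNA, which is transcribed by its own polymerase into long precursors from both strands. In macrophages the balance of glycolysis and respiration is known to change with their activation.

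Values are TPM, transcript abundances scaled for transcript length and for the total of each library, which keep no read depth, so the precision that depth gives is unknown. The 8 microglia and macrophage markers summed to between 3221 and 7708 TPM in TAMs and between 13932 and 16730 TPM in Microglia. On TPM 5 of these 8 were lower in TAMs and 1, Aif1, was higher. Among the lower ones, Tmem119 averaged 113 TPM in TAMs and 1208 TPM in Microglia. The 5 monocyte markers summed to between 5226 and 11674 TPM in TAMs and between 600.2 and 1001 TPM in Microglia. Lyz2 made up most of these sums, with 5005 to 11603 TPM in TAMs and 574 to 986 TPM in Microglia. Of the 5 markers 3 were higher in TAMs (Lyz2, Plac8 and Itgal). Ccr2 and Ly6c2 overlapped between the groups and were not called (adjusted p = 0.149 and 0.677 with limma on TPM). Among 5 neutrophil markers tested, 3 were higher in TAMs (S100a8, S100a9 and Retnlg) and 2 lower (Csf3r and Mmp9). Both B and plasma cell markers tested, Igkc and Jchain, were higher in TAMs. Markers of endothelial cells (7 of 7), mural cells (6 of 6), oligodendrocytes (6 of 6) and astrocytes (6 of 7) were lower in TAMs. In bulk libraries, fewer cells of a type and less RNA per cell cannot be told apart. Of 15262 genes tested, 1254 were higher in TAMs and 8610 lower (limma on log2(TPM + 1), Benjamini-Hochberg adjusted p under 0.05), and the median log2 fold change over all of them was -0.65. A second scale was therefore kept beside it, rescaled TPM, in which TPM was divided by a median-ratio factor of the library; there all genes had a median of -0.14. Together Mir6236, Mir6240 and Gm15662 made up between 13.6% and 25.6% of the TPM of a TAM library and between 3.20% and 15.3% of a Microglia library.

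Many nuclear subunits were higher in TAMs, and no mitochondrially encoded subunit was. On TPM, 35 of the 80 nuclear members tested were higher in TAMs, where 8.22% of all genes tested were, and 10 were lower, where 56.4% of all genes tested were. Their median log2 fold change was 0.22, against the median of -0.65 over all genes. On rescaled TPM, 70 nuclear members were higher and 4 lower, with 21.1% and 29.8% of all genes tested called in these directions. Of the 13 mitochondrial members, none was higher on TPM and 8 were lower, with a median log2 fold change of -0.71, close to the median of all genes. On rescaled TPM 1 of them, mt-Nd2, was lower, and the median was -0.11. In 35 nuclear members all TAM libraries lay above all Microglia libraries, as in 7.97% of all genes tested, and in 10 all TAM libraries lay below, as in 49.7%. With the near-identical copies that several members have summed into them, 37 nuclear members were higher and 11 lower on TPM (8.22% and 56.5% of all genes tested). In the authors' deposited table, whose p-values were adjusted here over all genes, 71 nuclear members were higher in TAMs and 3 lower, with 17.6% and 16% of all genes with a p-value called in these directions; 2 mitochondrial members were higher there and none lower.

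**Figure D1:**
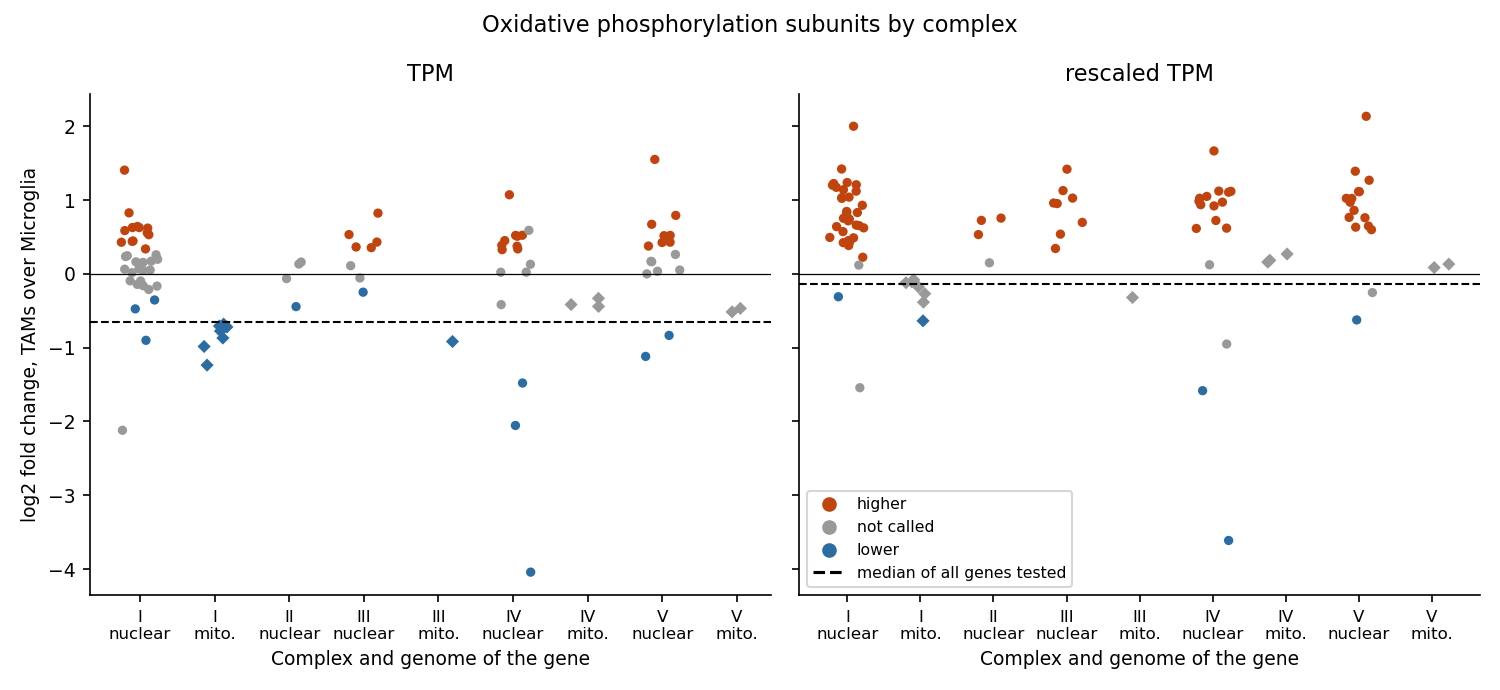
Log2 fold change (TAMs over Microglia, vertical axis) of each member tested, by complex and by the genome that encodes it, on TPM (left) and rescaled TPM (right). Circles are nuclear and diamonds mitochondrial genes, coloured by their call at an adjusted p of 0.05, and the dashed line is the median of all 15262 genes tested; most nuclear circles lie above that line on both scales, while the mitochondrial diamonds lie near it.

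The nuclear sum separated the groups, and the mitochondrial sum did not. The nuclear members summed to 9781, 11055, 10965, 10231 and 10722 TPM in the TAM libraries, against 7834, 9321 and 8220.3 TPM in the Microglia libraries. All TAM libraries were higher, with a mean of 10551 ± 536 TPM against 8458 ± 771 TPM (SD, n = 5 and 3). The mitochondrial members summed to 29964, 33033, 35333, 38556 and 47929 TPM in TAMs and to 40897, 78181 and 49392 TPM in Microglia. These sums overlapped, since TAMs replicate 5 lay above Microglia replicate 1, and Microglia replicate 2 stood far above the others.

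The ratio of the mitochondrial to the nuclear sum does not depend on how a library is scaled. It was 3.06, 2.99, 3.22, 3.77 and 4.47 in TAMs, against 5.22, 8.39 and 6.01 in Microglia. All 5 TAM libraries lay below all 3 Microglia libraries, with means of 3.50 and 6.54. The means left by dropping any single library ranged between 3.26 and 3.63 in TAMs and between 5.61 and 7.20 in Microglia. Within a complex the same ratio was between 2.37 and 3.56 in TAMs and between 5.11 and 8.01 in Microglia for complex I. For complex IV it was between 4.85 and 6.96 in TAMs and between 7.75 and 11.97 in Microglia, and for complex V between 2.61 and 4.23 in TAMs and between 4.44 and 7.58 in Microglia. None of these ranges overlapped. Within each group, libraries with a larger share of TPM in Mir6236, Mir6240 and Gm15662 had a smaller mitochondrial sum: in TAMs that share was 25.6%, 24.9%, 20.8%, 20.2% and 13.6% in replicates 1 to 5, and in Microglia 15.3%, 3.20% and 9.24% in replicates 1 to 3. Some markers of other cell types went the same way as the mitochondrial sum and the ratio. Within Microglia replicate 2 was highest and replicate 1 lowest in both and in the summed endothelial, mural, astrocyte and oligodendrocyte markers. Of the TAM libraries, replicate 5 was highest in both and in the summed endothelial, mural and neuron markers. It was also highest in granule lineage and tumor markers (60.0 TPM, against 5.39 to 14.0 TPM in the other TAM libraries). The same held for erythroid markers (118 TPM, against 4.54 to 20.2 TPM). TAMs replicate 4 was highest in astrocyte and oligodendrocyte markers, and Microglia replicate 3 in erythroid markers. The endothelial markers summed to between 11.8 and 76.2 TPM in TAMs and between 535 and 1717 TPM in Microglia. The part of these features and cells in the sum and the ratio was not tested.

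**Figure D2:**
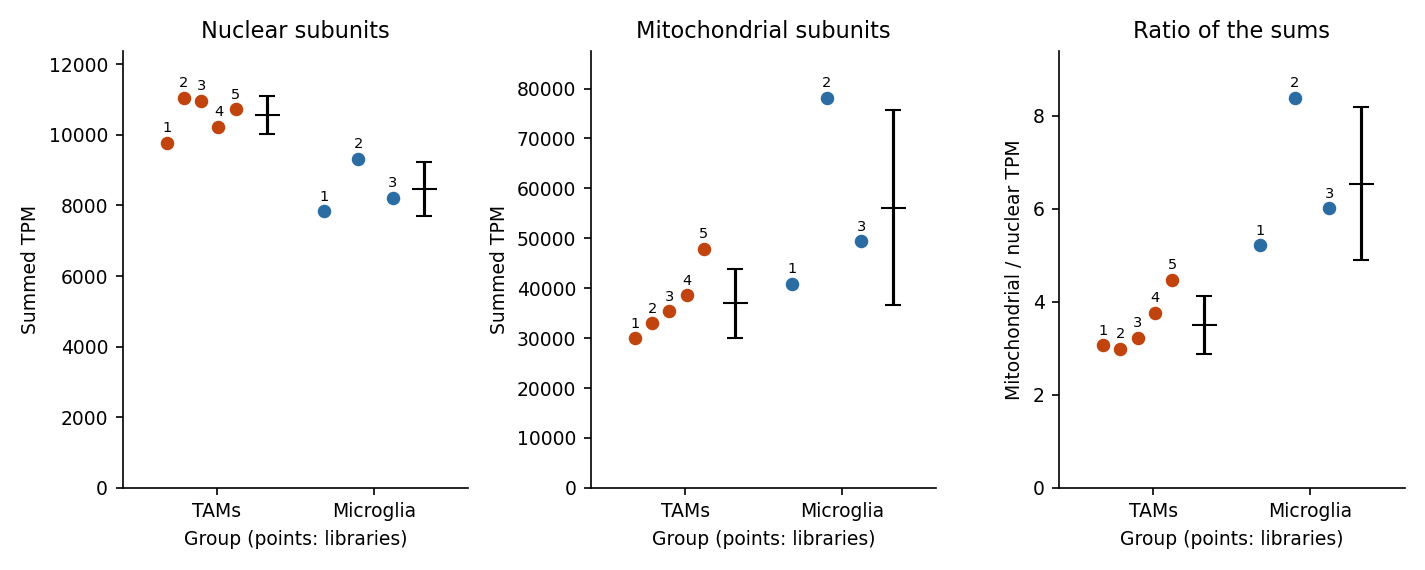
Summed TPM of the nuclear members (left) and of the mitochondrial members (middle), and the ratio of the 2 sums (right), in each library (points, numbered by replicate) of TAMs (n = 5) and Microglia (n = 3); black marks are the mean and SD. All TAM libraries lie above Microglia in the nuclear sum and below them in the ratio, while the mitochondrial sums overlap.

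The mitochondrially encoded subunits differed among themselves. The lower calls on TPM covered all 7 mt-Nd genes and mt-Cytb, while the 3 mt-Co genes and the 2 mt-Atp genes were not called. mt-Nd2, a membrane subunit of complex I (mitochondrial DNA, 3914 to 4951 on mm10), had 1037, 1008, 1212, 1485 and 1312 TPM in TAMs against 2139, 3964 and 2659 TPM in Microglia. The groups did not overlap, and its log2 fold change was -1.24 (SE 0.22, adjusted p = 0.0018 with limma) on TPM and -0.64 (adjusted p = 0.0283 with limma) on rescaled TPM. mt-Cytb, the cytochrome b of complex III (14145 to 15288), had 1754, 1866, 2279.8, 2542 and 3031 TPM in TAMs and 3092, 6127 and 3976 TPM in Microglia. These groups too did not overlap (log2 fold change -0.91, SE 0.26, adjusted p = 0.0159 with limma on TPM; -0.31 and not called on rescaled TPM). mt-Co1, the catalytic subunit of complex IV (5328 to 6872), had 5304, 5977, 6164, 6634 and 7515 TPM in TAMs and 6063, 11329.6 and 7179 TPM in Microglia, with overlapping groups and a log2 fold change of -0.33 (SE 0.24, adjusted p = 0.249 with limma).

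Among the other mt-Nd genes the log2 fold changes on TPM ranged between -0.98 for mt-Nd4l and -0.68 for mt-Nd3. mt-Nd3 and mt-Nd6 had groups that did not overlap, while mt-Nd1, mt-Nd4, mt-Nd4l and mt-Nd5 overlapped between the groups. With mt-Nd2 and mt-Cytb, 4 of the 13 mitochondrial members had all TAM libraries below all Microglia libraries, where 49.7% of all genes tested did. On rescaled TPM none of these 6 other mt-Nd genes was called, with log2 fold changes between -0.38 and -0.08. mt-Co2 and mt-Co3 had log2 fold changes of -0.44 and -0.42 on TPM, and mt-Atp6 and mt-Atp8 had -0.52 and -0.47, all not called, and on rescaled TPM these 4 were at 0.08 to 0.18. The 8 lower calls rested on the library with the most mitochondrial RNA: without Microglia replicate 2 only mt-Nd2 was called. Without TAMs replicate 1 or without Microglia replicate 3, 5 genes were called lower. On rescaled TPM the call of mt-Nd2 was lost, leaving 0 mitochondrial genes lower, when TAMs replicate 1, 2 or 3 or Microglia replicate 2 or 3 was left out.

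Ratios between mitochondrial genes, which no scaling changes, separated the groups too. mt-Nd2 over mt-Co1 was 0.195, 0.169, 0.197, 0.224 and 0.175 in TAMs against 0.353, 0.350 and 0.370 in Microglia. mt-Cytb over mt-Co1 was 0.331, 0.312, 0.370, 0.383 and 0.403 in TAMs against 0.510, 0.541 and 0.554 in Microglia. The 7 mt-Nd genes summed to between 0.428 and 0.596 of the 3 mt-Co genes in TAMs and between 0.676 and 0.691 in Microglia. In all 3 ratios every TAM library was below every Microglia library, and Microglia replicate 2, the outlying library in level, lay with the other Microglia. Several of these genes cannot be fully separated by reads: mt-Atp8 and mt-Atp6 overlap on the map, as do mt-Nd4l and mt-Nd4, and mt-Nd6 overlaps the end of mt-Nd5 on the other strand, while the strandedness of the libraries is not given in the sources used here. mt-Nd4l also has an identical nuclear copy, Gm10222, listed at between 684 and 1633 TPM in TAMs and between 1439 and 2516 TPM in Microglia. With the copy added, mt-Nd4l had a log2 fold change of -0.85 on TPM (adjusted p = 0.0253 with limma).

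**Figure D3:**
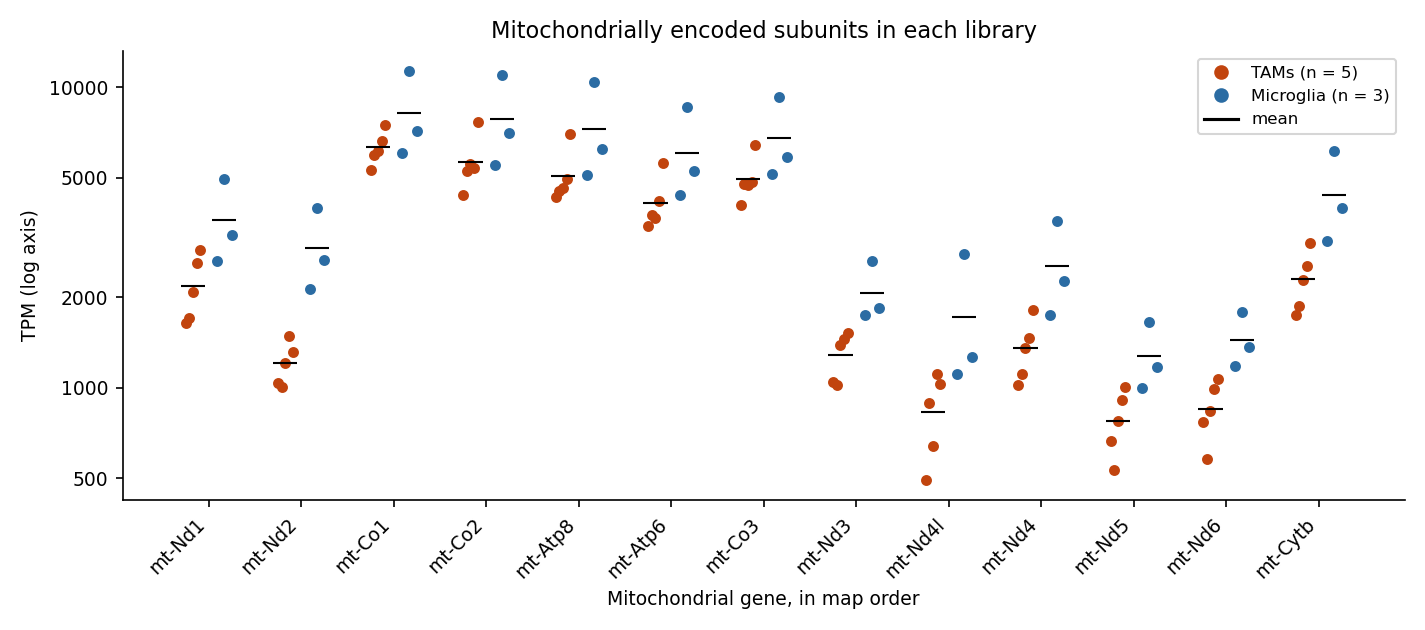
TPM (log axis) of the 13 mitochondrial members in each TAM library (left of each pair, n = 5) and Microglia library (right, n = 3), in map order, with the mean as a bar. mt-Nd2, mt-Nd3, mt-Nd6 and mt-Cytb show no overlap, while the mt-Co and mt-Atp genes overlap between the groups.

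Complex I, which takes electrons from NADH, had 35 nuclear members, of which 13 were higher, 3 lower and 19 not called on TPM. On rescaled TPM 32 were higher and 1 lower. All 13 that rose on TPM were accessory subunits (13 of 28), which surround the catalytic core. The 7 core subunits, which carry the flavin and the iron-sulfur clusters, included none higher and 3 lower on TPM. Of all genes tested 8.22% were higher and 56.4% lower. On rescaled TPM 5 of the 7 were higher and 1 lower, where 21.1% and 29.8% of all genes tested were. Ndufa1, a small accessory subunit of the membrane arm (chromosome X, 37187588 to 37191163 on mm10), was the most raised member of the complex, with 232, 197, 289.6, 279.6 and 253 TPM in TAMs against 84.2, 108 and 88.1 TPM in Microglia (1.40 on the log2 scale with an SE of 0.15 and an adjusted p = 0.000192 by limma). Every TAM library was well above every Microglia library, and on rescaled TPM the log2 fold change was 2.00. The other raised accessory subunits had log2 fold changes between 0.34 for Ndufb5 and 0.83 for Ndufv3 on TPM. Among them Ndufc1 (0.63) was not called once Gm11032, a near-identical copy of a short part of it, was summed in. The match was 96.0% identical over 101 bases, where annotated Ndufc1 transcripts had a median of 782. Gm11032 was listed at between 0 and 61.0 TPM in TAMs and between 0 and 50.2 TPM in Microglia. The sum had 0.34 (adjusted p = 0.552 with limma) on TPM and 0.93 (adjusted p = 0.110 with limma) on rescaled TPM.

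The core subunit Ndufv1, the flavoprotein that binds NADH (chromosome 19, 4007497 to 4012806 on mm10), had 38.2, 45.8, 42.4, 40.4 and 47.4 TPM in TAMs against 69.8, 96.7 and 77.6 TPM in Microglia. It was lower on both scales, by a log2 fold change of -0.90 (SE 0.13, adjusted p = 0.000642 with limma) on TPM and -0.31 (adjusted p = 0.0150 with limma) on rescaled TPM, and it was the only nuclear core subunit of any complex that was lower on both. Ndufs7, which holds the last iron-sulfur cluster before ubiquinone, had 61.7, 82.0, 71.2, 65.8 and 78.9 TPM in TAMs against 93.7, 106 and 100.2 TPM in Microglia. The groups did not overlap, yet its direction depended on the scale: -0.48 (adjusted p = 0.00691 with limma) on TPM and 0.12, not called, on rescaled TPM. Ndufs1, the largest subunit of the complex, averaged 24.9 ± 2.86 TPM in TAMs and 32.04 ± 3.39 TPM in Microglia (SD, n = 5 and 3). It was lower on TPM (-0.35, adjusted p = 0.0352 with limma) and higher on rescaled TPM (0.22, adjusted p = 0.0220 with limma). Leaving out TAMs replicate 1, 3 or 4, or Microglia replicate 2 or 3, ended its call on TPM, with log2 fold changes between -0.35 and -0.29. The core subunits Ndufs3, Ndufs8 and Ndufv2 were not called on TPM (0.063 to 0.26) and were higher on rescaled TPM (0.65 to 0.85).

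Ndufs5, an accessory subunit on the intermembrane side, was the lowest member of complex I on TPM with a log2 fold change of -2.12 that was not called (SE 1.27, adjusted p = 0.169 with limma). It had 102, 1.48, 51.5, 49.0 and 2.13 TPM in TAMs against 67.8, 98.6 and 73.3 TPM in Microglia (chromosome 4, 123712710 to 123718202 on mm10). The processed pseudogene BC002163 on chromosome 16 had 0, 93.9, 59.5, 61.2 and 115 TPM in the same TAM libraries and 6.13, 0.181 and 0.229 TPM in Microglia, high where Ndufs5 was low. BC002163 aligned with the Ndufs5 transcript of GENCODE M21 over 319 bases at 99.4% identity. The 65 bases that hold the 2 mismatches, bases 61 to 125 of the coding sequence counted from the start codon, are shown because they are the only differences over the aligned bases; capitals mark the mismatches T81C and A105G, Ndufs5 first.
Ndufs5: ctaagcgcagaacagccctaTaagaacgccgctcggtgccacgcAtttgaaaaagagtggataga
BC002163: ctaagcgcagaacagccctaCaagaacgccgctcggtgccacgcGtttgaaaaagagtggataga
Summed with this copy, Ndufs5 was higher in TAMs on TPM (log2 fold change 0.39, adjusted p = 0.0227 with limma).

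**Figure D4:**
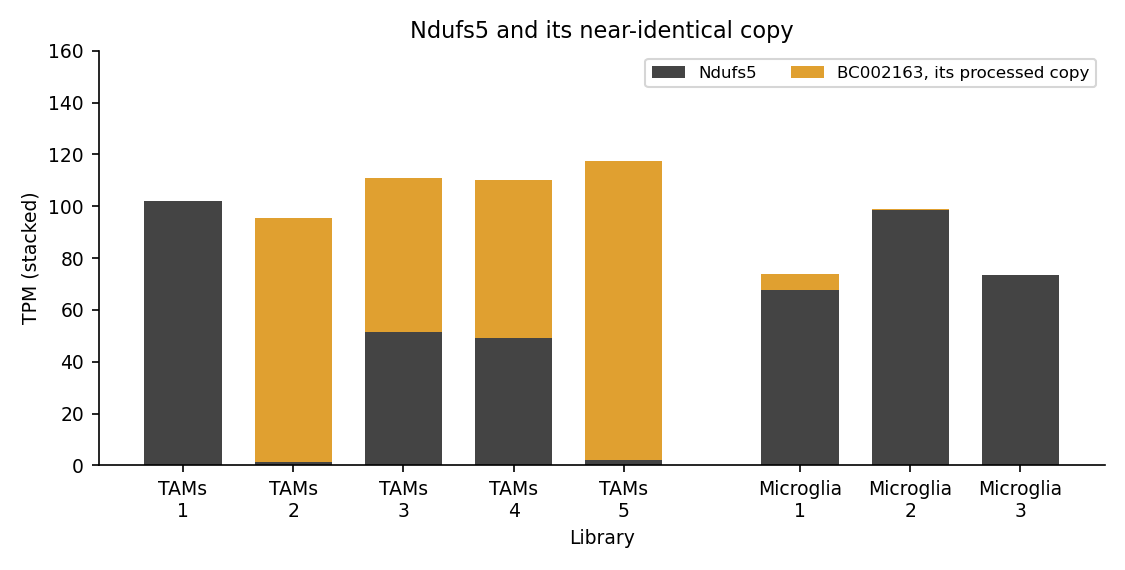
TPM of Ndufs5 (dark) and of its processed copy BC002163 (light), stacked, in the 5 TAM libraries (left) and the 3 Microglia libraries (right). The dark part falls to 1.48 and 2.13 TPM in TAMs replicates 2 and 5, where the light part reaches 93.9 and 115 TPM, so the stacked height varies less than either part.

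Complex II, the only complex with no mitochondrially encoded subunit and also an enzyme of the tricarboxylic acid cycle, held few calls on TPM. Of its 4 members 1 was lower and 3 were not called on TPM, where 56.4% of all genes tested were lower and 8.22% higher. The summed TPM overlapped between the groups. On rescaled TPM 3 members were higher and none lower, where 21.1% and 29.8% of all genes tested were. Sdha, the flavoprotein that oxidises succinate (chromosome 13, 74322254 to 74350280 on mm10), had 65.6, 81.2, 78.6, 75.5 and 79.1 TPM in TAMs against 88.5, 120.2 and 104 TPM in Microglia. The groups did not overlap, with a log2 fold change of -0.44 (SE 0.12, adjusted p = 0.0117 with limma) on TPM, -0.34 and not called without Microglia replicate 2, and 0.15, not called, on rescaled TPM. Sdhb, which holds the iron-sulfur clusters, had 148, 131, 155, 163 and 149 TPM in TAMs against 129.6, 137 and 133 TPM in Microglia, which overlapped through TAMs replicate 2. It was not called on TPM (0.16, adjusted p = 0.153 with limma), was called without TAMs replicate 2 (0.21), and was higher on rescaled TPM (0.75), as were the membrane anchors Sdhc and Sdhd (0.53 and 0.72).

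Complex III, which passes electrons to cytochrome c, had 8 nuclear members, with 5 higher, 1 lower and 2 not called on TPM. On rescaled TPM all 8 were higher. The shares over all genes tested were 8.22% higher and 56.4% lower on TPM, and 21.1% and 29.8% on rescaled TPM. The 5 that rose on TPM were the small subunits Uqcr10, Uqcr11, Uqcrb, Uqcrh and Uqcrq. Uqcr10 (chromosome 11, 4701973 to 4704342 on mm10) had 188, 185, 197, 189 and 199 TPM in TAMs against 103, 123 and 98.5 TPM in Microglia. All TAM libraries were higher and close to one another (log2 fold change 0.82, SE 0.09, adjusted p = 0.000258 with limma). The other nuclear members behaved otherwise. The Rieske protein Uqcrfs1 and Uqcrc1, a large subunit without a redox centre, were not called on TPM (0.11 and -0.06). Both were higher on rescaled TPM (0.70 and 0.54). Uqcrc2, the partner of Uqcrc1, averaged 66.7 ± 4.48 TPM in TAMs and 79.4 ± 6.51 TPM in Microglia (SD, n = 5 and 3), and was called lower on TPM (-0.25, adjusted p = 0.0446 with limma) but higher on rescaled TPM (0.34, adjusted p = 0.0120 with limma). Its call on TPM was lost when any library other than TAMs replicate 5 was left out, with log2 fold changes between -0.29 and -0.18.

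Complex IV, the oxidase that reduces oxygen to water, had 17 of its 20 nuclear members tested. On TPM 9 were higher, 3 lower and 5 not called, where 8.22% of all genes tested were higher and 56.4% lower. On rescaled TPM 13 were higher and 2 lower, where 21.1% and 29.8% of all genes tested were. All 9 that rose on TPM were common forms: Cox4i1, Cox5a, Cox5b, Cox6a1, Cox6b1, Cox6c, Cox7a2, Cox8a and Ndufa4. Cox5a, a subunit facing the matrix (chromosome 9, 57521232 to 57532424 on mm10), led with 145, 236, 219.8, 146 and 180.1 TPM in TAMs against 81.3, 91.9 and 85.1 TPM in Microglia (1.07 on the log2 scale with an SE of 0.18 and an adjusted p = 0.00132 by limma). Every TAM library was above every Microglia library, though TAMs differed among themselves. Cox4i1, a regulatory subunit, averaged 486 ± 29.2 TPM in TAMs and 355 ± 22.3 TPM in Microglia (SD, n = 5 and 3), a log2 fold change of 0.45 (adjusted p = 0.00315 with limma). For Cox6a1, Cox7a2, Cox8a and Ndufa4, with log2 fold changes of 0.39, 0.33, 0.34 and 0.37 on TPM, the call was lost without Microglia replicate 1 or without replicate 3 (0.26 to 0.41), and for Cox8a also without TAMs replicate 3 (0.33). The same 2 exclusions left 5 members of complex IV called higher.

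Of the 5 isoforms tested that are known from particular tissues or conditions, none was higher and 3 were lower on TPM, where 56.4% of all genes tested were lower. Ndufa4l2, a paralog of Ndufa4 known for its induction by hypoxia (chromosome 10, 127514939 to 127517152 on mm10), had 0.139, 0.888, 0.318, 0.617 and 0.999 TPM in TAMs against 13.2, 38.8 and 28.8 TPM in Microglia. It was the most lowered member on both scales, with a log2 fold change of -4.04 (SE 0.35, adjusted p = 8.44e-05 with limma) on TPM and -3.61 on rescaled TPM. Cox4i2, the paralog of Cox4i1 known from lung and from low oxygen (chromosome 2, 152754173 to 152765037 on mm10), had 0.799, 3.56, 1.73, 0.842 and 1.77 TPM in TAMs against 5.14, 14.2 and 12.2 TPM in Microglia (-2.05, SE 0.39, adjusted p = 0.00249 with limma; -1.58 on rescaled TPM). In both genes the groups did not overlap.

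Ndufa4l2 stood at between 0.621 and 4.06 per 1000 of Ndufa4 in TAMs and between 76.5 and 185 per 1000 in Microglia. Cox4i2 stood at between 1.76 and 7.34 per 1000 of Cox4i1 in TAMs and between 15.0 and 37.2 per 1000 in Microglia. In mouse brain both paralogs are known from pericytes, the mural cells of capillaries, and all 6 mural markers fell with them. Those markers summed to between 5.79 and 21.3 TPM in TAMs and between 271 and 765 TPM in Microglia, none of them at 0 in every TAM library. Within Microglia, replicate 1 was lowest and replicate 2 highest in the sum of mural markers and in both paralogs, and likewise in the sums of endothelial, astrocyte and oligodendrocyte markers. Within TAMs, replicate 1 was lowest and replicate 5 highest in the mural sum and in Ndufa4l2. Cox4i2 was instead highest in TAMs replicate 2 (3.56 TPM), where the mural sum was 5.86 TPM. It was at 0.842 TPM in replicate 4, where that sum was 11.7 TPM. The part of these cell types in these results was not tested.

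Cox6b2, the paralog of Cox6b1 known from testis, had 2.96, 14.1, 2.65, 2.97 and 3.76 TPM in TAMs against 11.3, 20.1 and 11.3 TPM in Microglia. TAMs replicate 2 lay among the Microglia values; the log2 fold change was -1.48 (adjusted p = 0.0236 with limma) on TPM, -1.22 and not called without Microglia replicate 2, and -0.95, not called, on rescaled TPM. The heart and muscle forms Cox6a2 and Cox7a1 were low in both groups and not called on TPM (-0.42 and 0.59). Cox7a1 averaged 4.71 ± 2.09 TPM in TAMs and 2.83 ± 1.66 TPM in Microglia (SD, n = 5 and 3) and was called higher on rescaled TPM (1.02). Cox7b2 and Cox8b did not reach 1 TPM in 3 libraries and were not tested: Cox7b2 was at or under 0.440 TPM in TAMs and between 0.531 and 0.835 TPM in Microglia, and Cox8b at or under 0.159 TPM in TAMs and between 0.207 and 1.21 TPM in Microglia. Cox8c was listed at 0 in all libraries.

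**Figure D5:**
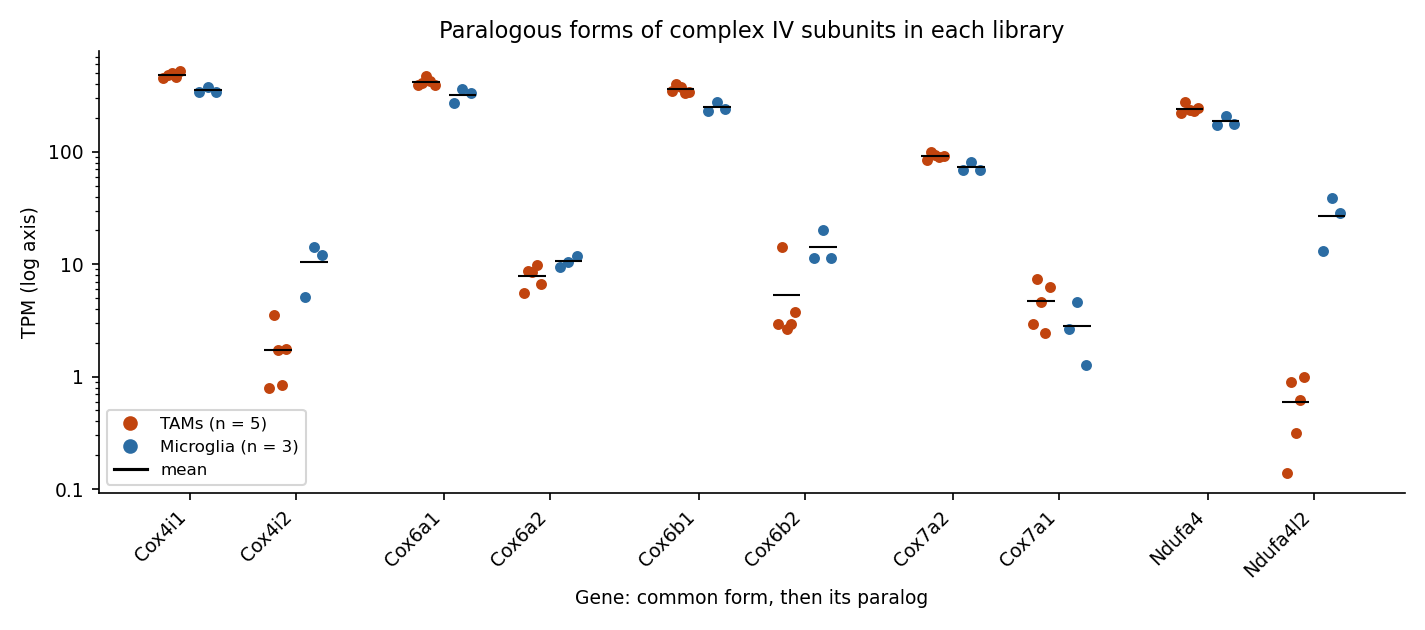
TPM (log axis) of the common form and of a paralog of 5 complex IV subunits, in each TAM library (left of each pair, n = 5) and each Microglia library (right, n = 3), with the mean as a bar. The common forms are higher in TAMs, while Ndufa4l2 and Cox4i2 are lower in all TAM libraries than in any Microglia library and Cox6b2 is lower in 4 of 5.

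Cox7a2l, a factor that helps complexes III and IV form supercomplexes, was not called on TPM (0.02, adjusted p = 0.846 with limma) at an average of 177 ± 15.1 TPM in TAMs and 174 ± 9.01 TPM in Microglia (SD, n = 5 and 3). Its processed copy Gm6969, 98.0% identical, was listed at 0, 0, 0, 0.387 and 53.9 TPM in TAMs and at 118, 106 and 115 TPM in Microglia. Summed with this copy, Cox7a2l was lower in TAMs on TPM (-0.63, adjusted p = 0.00672 with limma) and not called on rescaled TPM (-0.032, adjusted p = 0.856 with limma), where Cox7a2l alone was higher (0.62, adjusted p = 0.00403 with limma). Cox7c alone averaged 88.7 ± 8.18 TPM in TAMs and 81.0 ± 8.69 TPM in Microglia (SD, n = 5 and 3) and was not called. Summed with its identical copy Gm12338 it was called higher (0.32, adjusted p = 0.0217 with limma on TPM).

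Complex V, the ATP synthase, had 16 of its 17 nuclear members tested. On TPM 8 were higher, 2 lower and 6 not called, where 8.22% of all genes tested were higher and 56.4% lower. On rescaled TPM 14 were higher and 1 lower, where 21.1% and 29.8% of all genes tested were. The catalytic subunit Atp5b had 295, 421, 383, 368 and 379 TPM in TAMs against 329, 398 and 377 TPM in Microglia, which overlapped (adjusted p = 0.997 with limma on TPM). Atp5a1, the other large subunit of the head, averaged 233 ± 26.8 TPM in TAMs and 226 ± 14.3 TPM in Microglia (SD, n = 5 and 3; adjusted p = 0.801 with limma on TPM). On rescaled TPM both were higher, with log2 fold changes of 0.60 and 0.63. The 8 that rose on TPM, and on rescaled TPM too, were Atp5e, Atp5f1, Atp5g1, Atp5g3, Atp5j2, Atp5k, Atp5l and Atp5o, while Atp5d, Atp5h and Atp5j had log2 fold changes of 0.16, 0.26 and 0.051 that were not called on TPM. Atp5e of the central stalk averaged 461 ± 14.6 TPM in TAMs and 266 ± 8.76 TPM in Microglia (SD, n = 5 and 3; 0.79, adjusted p = 0.000145 with limma on TPM).

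Subunit c, which forms the rotating ring in the membrane, is encoded by 3 genes that give the same mature protein. Atp5g1 (chromosome 11, 96068852 to 96075670 on mm10) was the most raised nuclear member, with 90.2, 96.0, 96.8, 95.5 and 108 TPM in TAMs against 38.4, 33.1 and 27.1 TPM in Microglia (1.55 on the log2 scale with an SE of 0.12 and an adjusted p = 5.95e-05 by limma; 2.13 on rescaled TPM). The groups lay far apart, but a copy of 99.8% identity, Gm10039, was listed at between 40.8 and 60.8 TPM in TAMs and between 52.9 and 61.1 TPM in Microglia, and the log2 fold change of the sum was 0.69. Atp5g3 averaged 233 ± 33.9 TPM in TAMs and 172 ± 15.6 TPM in Microglia (SD, n = 5 and 3; 0.42, adjusted p = 0.0224 with limma on TPM), a call that was lost without Microglia replicate 1 (0.37) or replicate 3 (0.40). Atp5g2 was listed at 0 in all 8 libraries, while its identical processed copy Gm10231 was listed at between 378 and 440.3 TPM in TAMs and between 289 and 303 TPM in Microglia, a log2 fold change of 0.41 (adjusted p = 0.00365 with limma) for the pair. The lower calls of complex V were both factors named after it and not structural subunits. Atp5s, known as a coupling factor, had 2.29, 2.56, 3.38, 2.73 and 3.90 TPM in TAMs against 6.88, 8.70 and 7.12 TPM in Microglia, and was lower on both scales (-1.12, adjusted p = 0.00134 with limma on TPM; -0.62 on rescaled TPM). Atp5sl, an assembly factor of complex I despite its symbol, averaged 21.8 ± 2.97 TPM in TAMs and 39.6 ± 3.32 TPM in Microglia (SD, n = 5 and 3), and was lower on TPM only (-0.83, adjusted p = 0.00106 with limma).

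Over all complexes, 32 of 53 accessory subunits were higher and 1 lower on TPM, with a median log2 fold change of 0.37. Of 19 core subunits tested 3 were higher and 4 lower, with a median of 0.07. Of all genes tested 8.22% were higher and 56.4% lower. On rescaled TPM 52 accessory subunits were higher and none lower, and 16 core subunits were higher and 1 lower. There 21.1% and 29.8% of all genes tested were called in these directions. Annotated transcripts were shorter for accessory subunits, with a median of 606 nucleotides against 1023 for core subunits, and this length moved with the fold change. Length was the median over all annotated coding transcripts of a gene, which may differ from the transcript expressed. The large subunits Ndufs1 and Uqcrc1 were thus listed at 651 and 533 nucleotides, and Atp5g1 at 2675.5, so the length groups below are rough. Across the 80 nuclear members, Spearman's rho between length and log2 fold change was -0.43, and across 12566 other coding genes it was -0.19 (genes share libraries and are not independent). Of the members under 600 nucleotides, 20 of 29 were higher on TPM, where 17.3% of other coding genes of that length were. Of those between 600 and 1000 nucleotides 11 of 31 were higher, against 14.3%, and between 1000 and 2000 nucleotides 2 of 17, against 10.2%. Between 2000 and 4000 nucleotides 2 of 3 were higher, against 7.15%. The part of transcript length in the difference between core and accessory subunits was not tested.

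The genes that build and regulate the system were called higher on TPM about as often as genes in general. The 10 lists held 141 genes matched in the table, of which 137 were tested. On TPM 12 were higher in TAMs and 58 lower, 8.76% and 42.3%, where 8.22% and 56.4% of all genes tested were, and on rescaled TPM 54 were higher and 14 lower, 39.4% and 10.2%, where 21.1% and 29.8% of all were. The medians over all genes were -0.65 on TPM and -0.14 on rescaled TPM. Of the complex I assembly factors none of 15 was higher and 7 were lower, with a median log2 fold change of -0.42, while on rescaled TPM 2 were higher and none lower, with a median of 0.11. Acad9, an assembly factor of the membrane arm, averaged 16.4 ± 3.51 TPM in TAMs and 29.5 ± 4.56 TPM in Microglia (SD, n = 5 and 3). Of the complex II and III assembly factors 1 of 10 was higher and 5 lower on TPM, and 4 were higher and 2 lower on rescaled TPM; Uqcc1, needed for the synthesis of cytochrome b, had a log2 fold change of -0.95 (adjusted p = 0.0010 with limma) on TPM. Of the complex IV assembly factors 7 of 22 were higher and 5 lower on TPM, and 12 were higher and 1 lower on rescaled TPM. The copper chaperone Cox17 had 111, 96.7, 103, 108 and 89.0 TPM in TAMs against 73.7, 78.3 and 70.1 TPM in Microglia, all TAMs higher (0.45, adjusted p = 0.00453 with limma). The electron carriers and the further subunits Cyc1 and Ndufab1 included none of 6 higher and 1 lower on TPM, and 5 higher on rescaled TPM.

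Genes that replicate, transcribe and process mitochondrial DNA were lower in 16 of 23 and higher in 1 on TPM, and lower in 5 and higher in 4 on rescaled TPM. Their medians of -0.66 and -0.16 were close to those over all genes. Polrmt, the mitochondrial RNA polymerase, had 7.19, 7.35, 8.77, 6.57 and 11.4 TPM in TAMs against 14.9, 22.5 and 17.7 TPM in Microglia, and was lower on both scales (-1.07, adjusted p = 0.00242 with limma on TPM; -0.51 on rescaled TPM). Polg, the DNA polymerase of mitochondria, and Lrpprc, which stabilises mitochondrial mRNA, were also lower on both scales (-1.13 and -1.10 on TPM, -0.55 and -0.52 on rescaled TPM). All TAM libraries lay below all Microglia libraries in these 3 genes. Of the nuclear regulators of respiration genes 8 of 10 were lower and none higher on TPM, where 56.4% and 8.22% of all genes tested were. On rescaled TPM 3 were lower and none higher, where 29.8% and 21.1% of all genes tested were. Nrip1, a corepressor of respiration genes in mouse fat and muscle, had 12.2, 12.5, 11.9, 11.9 and 19.0 TPM in TAMs against 47.5, 64.1 and 51.7 TPM in Microglia (-1.95, adjusted p = 0.000114 with limma on TPM; -1.37 on rescaled TPM). The factor Nrf1, which binds promoters of respiration genes, averaged 13.5 ± 0.717 TPM in TAMs and 22.6 ± 1.94 TPM in Microglia (SD, n = 5 and 3; -0.70, adjusted p = 0.0010 with limma on TPM; -0.13, not called, on rescaled TPM).

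Of 22 enzymes of the tricarboxylic acid cycle and pyruvate entry, none was higher and 12 were lower on TPM, near the 56.4% of all genes tested. On rescaled TPM 8 were higher and 3 lower, where 21.1% and 29.8% of all genes tested were. Idh2, the mitochondrial NADP-linked isocitrate dehydrogenase, had 44.1, 89.7, 81.1, 62.3 and 79.6 TPM in TAMs against 159, 160.5 and 152 TPM in Microglia, lower on both scales (-1.17, adjusted p = 0.00204 with limma on TPM; -0.58 on rescaled TPM). Of 13 membrane transport genes 1 was higher and 1 lower on TPM, where 8.22% and 56.4% of all genes tested were. On rescaled TPM 11 were higher and none lower, where 21.1% and 29.8% were. The same shares apply to the lists that follow. The higher gene on TPM was Ucp2, an inner membrane carrier related to uncoupling protein and known from macrophages, with 1197, 1575, 1337, 1247 and 1579 TPM in TAMs against 789, 833 and 859.7 TPM in Microglia (0.74, adjusted p = 0.00175 with limma). Every TAM library was higher. Of 13 genes of mitochondrial dynamics and cristae 1 was higher and 4 lower on TPM, and 6 higher and 1 lower on rescaled TPM. Of 5 genes of complex V assembly and inhibition 1 was higher and none lower on TPM, and 2 were higher and none lower on rescaled TPM.

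The promoters of the nuclear members were read from RefSeq (GRCm38.p6), where 66 of the 84 genes matched with 71 windows of the 250 bases before a start. The motif of the factor NRF1, GCGCA, any base and then GCGC on either strand, was in 14 windows, 19.7%, against 3.74% of all 32851 windows of this length. The motif of ETS factors, CCGGAAGT, was in 4.23% of the member windows and 2.88% of all, and that of YY1, AAGATGGC, in 1.41% and 1.57%. The Sp1 motif GGGCGG was in 32.4% of member windows and 32.7% of all. The hypoxia element ACGTG was in 19.7% and 16.6%, and TATAAA in 9.86% and 12.4%. All motifs were searched on both strands, and a window may hold several. The windows of 4 members are shown, because they hold the NRF1 motif and differ in the call on TPM: Cox6a1 and Atp5k were higher, Ndufb4 was not called and Sdha was lower. Capitals mark the NRF1 motif; the windows are chr5:115348959-115349208, chr5:108434400-108434649, chr16:37654369-37654618 and chr13:74350241-74350490, all on the minus strand, written in the direction of the gene.
Cox6a1: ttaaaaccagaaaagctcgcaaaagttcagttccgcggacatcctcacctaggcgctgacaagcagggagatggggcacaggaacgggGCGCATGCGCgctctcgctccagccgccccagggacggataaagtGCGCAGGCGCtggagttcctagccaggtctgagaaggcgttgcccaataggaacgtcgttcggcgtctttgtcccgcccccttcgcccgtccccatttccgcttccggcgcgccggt
Atp5k: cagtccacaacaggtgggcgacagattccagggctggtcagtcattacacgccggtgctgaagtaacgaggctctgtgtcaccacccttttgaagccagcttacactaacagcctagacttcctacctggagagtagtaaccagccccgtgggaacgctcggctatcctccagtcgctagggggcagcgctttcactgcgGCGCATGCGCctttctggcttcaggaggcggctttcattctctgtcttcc
Ndufb4: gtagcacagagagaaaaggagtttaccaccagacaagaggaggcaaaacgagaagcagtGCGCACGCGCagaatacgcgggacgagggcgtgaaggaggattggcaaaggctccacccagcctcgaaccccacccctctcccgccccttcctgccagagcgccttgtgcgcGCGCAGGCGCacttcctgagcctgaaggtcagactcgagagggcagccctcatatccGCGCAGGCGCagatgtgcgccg
Sdha: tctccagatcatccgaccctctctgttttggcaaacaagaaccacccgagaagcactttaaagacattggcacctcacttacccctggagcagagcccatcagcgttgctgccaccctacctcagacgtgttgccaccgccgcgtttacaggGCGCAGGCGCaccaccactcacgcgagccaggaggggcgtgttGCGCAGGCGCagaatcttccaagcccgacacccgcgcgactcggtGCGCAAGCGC
Sdha and Ndufb4 hold 3 matches each, Cox6a1 holds 2 and Atp5k holds 1. Of the 13 members with the motif in a window, 3 were higher on TPM, 8 were not called, 1 was lower and 1 was not tested. Of all 80 nuclear members tested 35 were higher and 10 lower, and of all genes tested 8.22% and 56.4%. On rescaled TPM Ndufs5 and Sdha were not called, and the other members tested with the motif were higher.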

How the data were processed

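RNA-seq of 8 libraries (5 TAMs, 3 Microglia) was analysed from 1 deposited table, with groups from the sample titles. Per the file headers, the authors deposited TPM for each library. The log2 fold change, the unadjusted p-value and the mean signal per gene in that table are the authors' own, per the file headers. The submitters' processing notes name build mm10, FastQC and DESeq2. Which aligner, quantifier and annotation were used, and whether reads kept their strand, is not given in the sources here.

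Genes at 1 TPM or more in 3 or more libraries (15262) entered a limma fit (version 3.58.1, R 4.3.3) of log2(TPM + 1) with trend, all 8 libraries in 1 fit without covariates, with Benjamini-Hochberg adjustment over all genes and a threshold of 0.05. This log2 scale understates changes of low genes. The fit was checked on simulated data. Rescaled TPM used median ratios over 11114 genes at 1 TPM or more in every library. Near-identical copies were found with blastn 2.17.0 among GENCODE M21 transcripts (at least 95% identical, covering at least 80% of the copy). Medians and sums over members have no test.

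The members and lists were chosen with earlier results of these data known. Genes named are the mitochondrial members, the extremes of each complex, set core subunits, paralogous isoforms, members called against their complex or differently by scale, and the called genes of each list with the lowest p (at most 4). Others, such as copies and raised subunits named by group, were chosen after their values were seen. The 3 unnamed columns of the table were not used. Settings tried as alternatives were the scaling, the filter, the pseudocount (0.1), a replicate block, summed copies and leaving out each library. Some genes are not reported here.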

Additional observations from a re-analysis of the deposited data

Results flagged for a closer look

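In a group of 5 libraries, 1 value far from the other 4 was looked for in each gene, and chance gives about 1 such value in 20 groups. Cox6b2 had 14.09 TPM in TAMs replicate 2, against 2.65 to 3.76 TPM in the other TAM libraries. mt-Atp8 had 7015 TPM in TAMs replicate 5, against 4314 to 4952 TPM in the other TAM libraries. The group tests covered 99 values or genes, of which these 2 stood out.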

How the results depend on the processing

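On rescaled TPM, alone and with near-identical copies summed, 70 nuclear members were higher and 4 lower and 1 mitochondrial member was lower; medians were 0.81 (0.85 with copies) and -0.11. By complex, 32, 3, 8 and 14 (15 with copies) nuclear members of complexes I, II, III and V were higher, and 1, 0, 0 and 1 lower. The lists gave 54 higher and 14 lower; all genes gave 3213 higher and 4555 lower (3209 and 4553 with copies). Of the named genes called on TPM, both rescaled fits turned round the direction of Sdha (0.15), Uqcrc2 (0.34), Ndufs1 (0.22), Ndufs7 (0.12), Timmdc1 (0.045), Foxred1 (0.11), Etfdh (0.20), Slc25a11 (0.30) and Mff (0.0072); among those not called on TPM, Uqcrc1 (0.54), Sdhc (0.53), Atp5b (0.60), Cox6a2 (0.12) and the mt-Co and mt-Atp genes (0.085 to 0.27) changed sign too. TPM without Mir6236, Mir6240 and Gm15662 gave a nuclear median of 0.41, with 22 of complex I and 2 of complex II higher, 0 of complex III lower and 23 list genes higher. TPM over nuclear coding genes gave 0.36 (0.355), 20, 2 and 0. Without a filter, 5 of complex IV were lower.

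Same-numbered libraries had correlations of deviations of 0.15, 0.014 and -0.051, and differently numbered ones lay between -0.118 and 0.083. So few libraries cannot show whether the numbers pair the samples. With a replicate block 34 nuclear members were higher and 9 lower, 8 mitochondrial members were lower, 0 of complex III was lower, and 7 list genes were higher.

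Leaving out each library in turn gave 26 to 37 nuclear members higher and 5 to 10 lower, 1 to 9 mitochondrial members lower, a nuclear median of 0.15 to 0.32 and a mitochondrial median of -0.88 to -0.50. By complex I to V, 11 to 14, 0 to 1, 4 to 5, 5 to 9 and 6 to 9 nuclear members were higher and 2 to 3, 0 to 1, 0 to 1, 1 to 3 and 2 lower. The lists gave 6 to 12 higher and 33 to 73 lower, and all genes 894 to 1303 higher and 5581 to 9243 lower. On rescaled TPM these exclusions gave 63 to 69 nuclear members higher, 2 to 6 lower and 0 to 1 mitochondrial member lower. The lowest mitochondrial and nuclear lower counts and the 5581 came without Microglia replicate 2. The causes of these shifts were not tested. Depth is unknown, since TPM keeps none.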

Other observations

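The 5 genes that are no members and were most like the mean of the nuclear members over the 8 libraries, among 5488 genes with a mean of 20 TPM or more, were Stom, a membrane scaffold protein, Bola3 and Glrx2, both of mitochondrial iron-sulfur or thiol chemistry, Ripk1, a kinase of cell death signalling, and Mdh2 of the tricarboxylic acid cycle. Their Pearson's r on log2(TPM + 1) ranged between 0.924 and 0.981 as a description. Among those most like the mean of the mitochondrial members were Tsg101, Rnf11, Blmh and Psmd7, with r between 0.976 and 0.982. The 8 libraries fall into 2 groups that set much of such likeness.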
